A study of Mus musculus with 6 samples.

Results

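Forkhead factors are transcription factors that share a winged-helix DNA-binding domain. The 10 genes described here are Foxo1, Foxo3 and Foxo4 of the FOXO branch, Foxp1 and Foxp4, Foxj2 and Foxj3, Foxk1 and Foxk2, and Foxn3. They are 10 of the 18193 mouse genes that have at least 1 probe set of their own on the array, and 37 probe sets are annotated to them alone. The members were chosen by name. For each gene the brightest probe set, by its mean over the 6 arrays, gives the main value, and its other probe sets are set beside it.

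Messenger RNA was measured in 6 samples of 32D, a mouse myeloid cell line that depends on interleukin-3. One arm of 3 samples (replicate numbers 1 to 3) carried a construct for miR-9 and miR-9* that the labels name C2-MiR-9, and the other arm of 3 carried the empty vector, named A1-EV. All were grown in RPMI with 10% FCS and 10 ng/ml murine interleukin-3, so no sample was deprived of the cytokine. The labels give neither the promoter of the construct nor whether the cells are a clone or a pool. The labels call the replicates independent but not whether each had its own culture, so p-values measure only the spread between these samples.

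FOXO proteins sit at the end of the PI3K-AKT pathway. Growth factor and cytokine signals let AKT phosphorylate them, after which they leave the nucleus, and when the signal is withdrawn they return and switch on genes of cell cycle arrest, cell death, antioxidant defence and autophagy. In blood, FOXO factors are known for keeping stem cells quiescent and for the maturation of red cell precursors. Because this control acts on the protein, messenger RNA levels do not report how active a FOXO factor is.

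Foxo1 and Foxo3 are among the genes reported elsewhere as targets of miR-9. The 2 strands that the construct is named for come from opposite arms of 1 hairpin and have different seeds, the bases that pair with a target message. Levels of the mature strands were not measured here. Their mature sequences, from RefSeq on build GRCm38.p6, are shown because they are the agents compared here. Capitals mark the seed, bases 2 to 8 from the 5′ end.
mmu-miR-9-5p (miR-9): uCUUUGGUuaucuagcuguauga
mmu-miR-9-3p (miR-9*): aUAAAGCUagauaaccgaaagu
Both strands are encoded in the same form by 3 genes. They lie on the plus strand in Mir9-1 (chr3:88215613-88215635 for the 5p strand and chr3:88215652-88215673 for the 3p strand), in Mir9-2 (chr13:83738821-83738843 and chr13:83738858-83738879) and in Mir9-3 (chr7:79505279-79505301 and chr7:79505318-79505339). Target messages were not searched for sites, since 3′ UTR sequences were not used here.

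The deposited values are MAS5 signals on a linear scale. Differences between the arms are differences in mean log2(signal + 16), miR-9/9* minus empty vector, which understate the change of dim genes. Genes whose mean lay below the median of all probe sets, a signal of 12.9, were not tested, which left 10208 genes and 9 of the 10 members. Arms were tested with limma, with p-values adjusted by Benjamini and Hochberg's method across the 10208 genes (threshold 0.05), without pairing and again with the replicate number as a block. Median signals of the arrays ran from 11.97 to 15.1. Of 11 early myeloid markers 10 lay above the filter, all but the elastase gene Elane. Among them 1 was called lower with the block, beside 1.45% of all genes. The summed signal of the 11 ran from 7041 to 11645 in miR-9/9* samples and from 7808 to 10446 in empty vector samples. Of 7 lymphoid markers 1 lay above the filter. With the block, 3 of 7 erythroid, 4 of 6 megakaryocyte and 2 of 3 eosinophil markers were called higher, beside 1.51% of all genes. Without pairing 0 markers of these 3 lineages were called. Of the 7 erythroid markers 2 had differences below 0. The summed erythroid signal ran from 3834 to 3991 in miR-9/9* samples and from 2781 to 3966 in empty vector samples, with Alas2 and Slc4a1 below the filter. The megakaryocyte sum ran from 1495 to 2850 in miR-9/9* samples and from 1222 to 2264 in empty vector samples, with Ppbp below the filter. The eosinophil sum ran from 277 to 3617 in miR-9/9* samples and from 255 to 1376 in empty vector samples, with Ccr3 and Il5ra below it. Of 5 monocyte markers above the filter 1 was called higher in both fits. Over all genes 1.51% were called higher with the block, and 0.0588% were called in either direction without it. Of 5 mast cell and basophil markers 0 were called in either fit. The part of these differences in the results below was not tested. In bulk samples, fewer cells of a type and less RNA per cell cannot be told apart.

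The construct for miR-9 and miR-9* was accompanied by no detectable change of any forkhead member represented by its main probe set. Of the 9 members tested, 0 were called by limma without pairing, where 0.0588% of all genes were called, and 0 with the block, where 2.96% were called. An unadjusted p under 0.05 was reached by 0 members in either fit, beside 4.60% of all genes without pairing and 17.0% with the block. Their log2 differences ran from -0.12 to 0.32, 5 below 0 and 4 above. The median was -0.03, against 0.01 over all 10208 genes, and the median size without sign was 0.11, against 0.10 over all genes. The 95% intervals without pairing all lay between -0.72 and 0.65, and those with the block between -0.36 and 0.64, so a doubling or halving on this scale lay outside every interval.

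**Figure D1:**
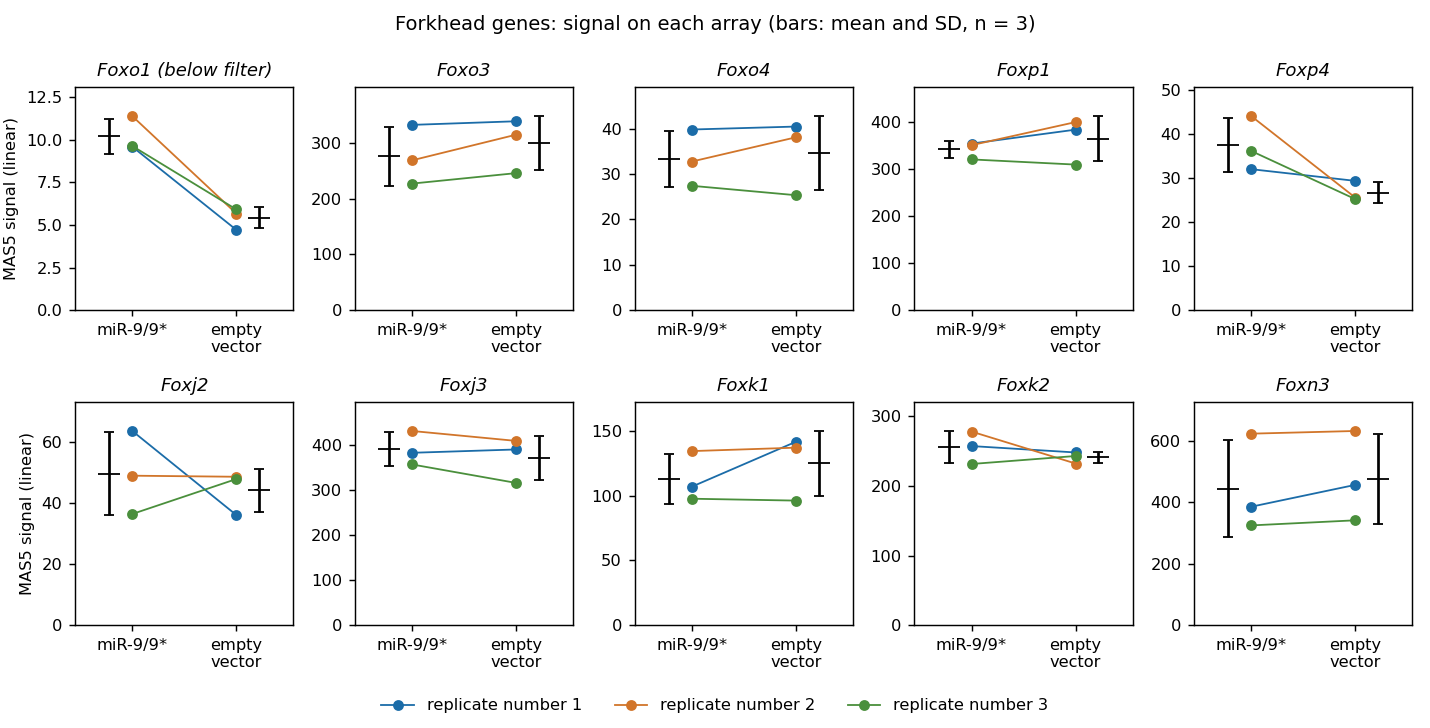
MAS5 signal (linear axes from 0) of the 10 forkhead genes on each array, miR-9/9* at the left and empty vector at the right of each panel, points of the same replicate number joined, bars for mean and SD of 3 arrays. Apart from Foxo1, which lies below the filter, and Foxp4, the arms overlap in every panel, and for Foxo3 and Foxn3 the replicate numbers differ more than the arms.

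Among the FOXO genes, Foxo3, the FOXO factor linked most closely to blood stem cells and red cell maturation, stood at 332, 269 and 227 in miR-9/9* samples 1, 2 and 3, against 339, 314.5 and 246 in empty vector samples 1, 2 and 3. Replicate number 3 was the lowest in both arms and the arms overlapped. Within replicate numbers the log2 differences were -0.03, -0.22 and -0.11, below 0 in 3 of 3 pairs, a pattern of equal sign that 39.0% of all genes showed. The mean difference was -0.12 (SE 0.169, adjusted p = 0.999 in limma), with a 95% interval of -0.50 to 0.27. With the block the interval narrowed to -0.28 to 0.05 (adjusted p = 0.478). The other Foxo3 probe set above the filter, 1434832_at, stood at 159, 147 and 119 in miR-9/9* samples, against 187, 185 and 145 in empty vector samples. It too was lower within each number, by 0.21 to 0.30 on the log2 scale, and its mean difference of -0.25 did not pass (adjusted p = 0.194 with the block, over all probe sets). The third, 1450236_at, lay below the filter.

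Foxo4, the X-linked FOXO gene, stood at 39.8, 32.8 and 27.4 in miR-9/9* samples and at 40.5, 38.1 and 25.3 in empty vector samples. Number 3 was again the lowest in both arms, and the difference of -0.03 (95% interval -0.43 to 0.37) had pairs of both signs. Foxo1, which acts in insulin signalling and B cell development, lay below the filter for all 4 of its probe sets. The brightest, 1416982_at, was listed at 9.59, 11.4 and 9.63 in miR-9/9* samples, against 4.71, 5.67 and 5.91 in empty vector samples. The arms did not overlap there. Among the tested genes, which all lie above the filter, 9.82% showed this, and no such share was taken for dim probe sets. An exact permutation of 3 against 3 samples cannot give a p below 0.1, and in the limma fit without a filter Foxo1 did not pass (difference 0.29, adjusted p = 0.974, and 0.424 with the block). Its remaining 3 probe sets had differences of -0.25, -0.02 and -0.13, opposite in sign to the brightest.

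The FOXP factors are repressors that act with corepressor complexes. Foxp1, which is needed in B cell development and restrains monocyte differentiation, stood at 355, 351 and 321 in miR-9/9* samples and at 384, 400.3 and 309.9 in empty vector samples. The arms overlapped, and the difference was -0.08 (SE 0.127, 95% interval -0.37 to 0.21). All 8 Foxp1 probe sets lay above the filter, 5 with a difference below 0 and 3 above, from -0.22 to 0.13, and 0 were called in either fit.

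Foxp4 had the largest difference of the 9 tested members. Its probe set 1431437_at stood at 32.1, 44.1 and 36.2 in miR-9/9* samples, against 29.4, 25.6 and 25.3 in empty vector samples. Every miR-9/9* sample lay above every empty vector sample, which made Foxp4 1 of 9 members without overlap, beside 9.82% of all genes. The difference of 0.32 (SE 0.147, 95% interval -0.02 to 0.65) did not pass (adjusted p = 0.999, and 0.298 with the block). A second Foxp4 probe set, 1429719_at, ran the other way, at 12.2, 15.9 and 16.3 in miR-9/9* samples against 22.0, 19.0 and 22.9 in empty vector samples. Here every miR-9/9* sample lay below every empty vector sample, with a difference of -0.28 (adjusted p = 0.419 with the block). The probe sets therefore disagree on the direction of Foxp4, and 1431088_at lay below the filter. Over all members, 3 of 27 probe sets had arms that did not overlap, beside 8.38% of all probe sets.

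Foxj2 and Foxj3 are closely related activators, and Foxj3 is known for its role in muscle regeneration in mice. Foxj2 stood at 63.5, 48.9 and 36.3 in miR-9/9* samples and at 36.0, 48.5 and 47.8 in empty vector samples. Its differences within numbers were 0.61, 0.01 and -0.29, the widest spread among the main probe sets of the members, around a mean of 0.11 (95% interval -0.31 to 0.54). Foxj3 stood at 384, 432 and 358 in miR-9/9* samples and at 391, 410.2 and 317 in empty vector samples, a difference of 0.07 (95% interval -0.23 to 0.37). Its second probe set above the filter, 1438220_at, was at 21.8, 25.5 and 30.3 in miR-9/9* samples, all below the 31.3, 37.3 and 36.2 of empty vector samples. That difference was -0.28 (adjusted p = 0.358 with the block), so averaging the Foxj3 probe sets turned the sign to -0.11.

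The FOXK factors bind the promoters of autophagy genes and repress them together with SIN3 complexes. Foxk1 stood at 107, 134 and 97.6 in miR-9/9* samples and at 142, 137 and 96.1 in empty vector samples. The difference of -0.12 (SE 0.177, 95% interval -0.53 to 0.28) came mainly from number 1, at -0.36, while number 2 stood at -0.03 and number 3 at 0.02. It was -0.28 without empty vector replicate 3 and -0.0033 without number 1. Foxk2 stood at 257, 278 and 232 in miR-9/9* samples and at 248, 232 and 243 in empty vector samples, and its arms overlapped. All 5 Foxk2 probe sets lay above the filter and all had differences above 0, from 0.01 to 0.19, with 0 called in either fit. Centring the arrays on their medians turned 1 of them, 1452753_at, to -0.01.

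**Figure D2:**
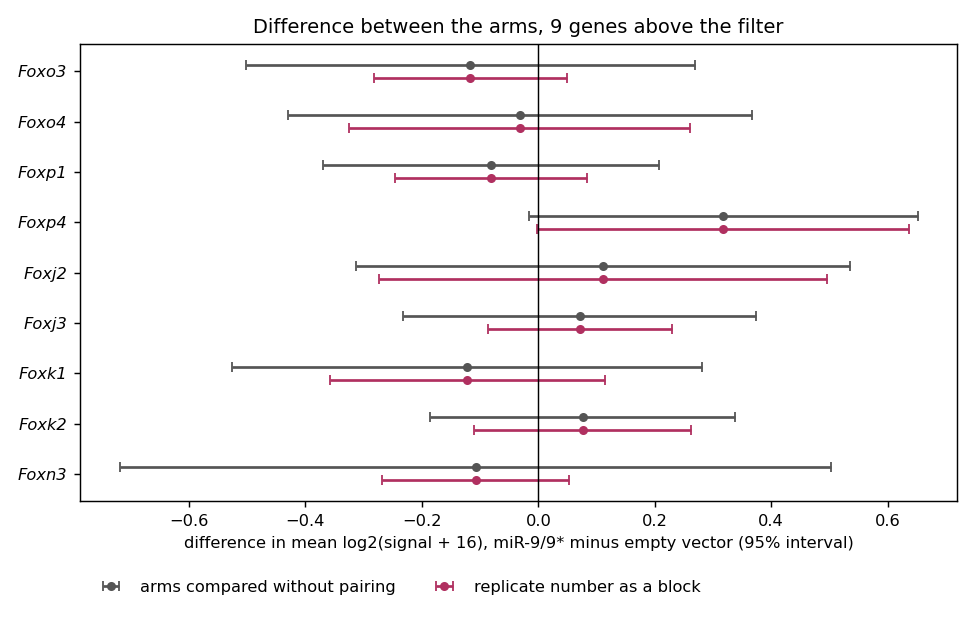
Difference in mean log2(signal + 16), miR-9/9* minus empty vector, with 95% intervals, for the 9 forkhead genes above the filter, compared without pairing and with the replicate number as a block. Every interval includes 0, and Foxp4 has the largest difference, 0.32.

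Foxn3, a repressor also known as a checkpoint suppressor, was the member with the widest range across samples. Its main probe set stood at 385, 623 and 325 in miR-9/9* samples, against 457, 632 and 341 in empty vector samples. Number 2 was the highest and number 3 the lowest in both arms. The difference between the arms was -0.11 (SE 0.268, 95% interval -0.72 to 0.50), and -0.27 to 0.05 with the block. All 4 Foxn3 probe sets lay above the filter and all had differences below 0, from -0.44 to -0.11. Probe set 1438255_at stood at 140, 173 and 109 in miR-9/9* samples, against 177, 244 and 169 in empty vector samples. It was lower in 3 of 3 pairs, with differences of -0.31, -0.46 and -0.56, and was the only member probe set called with the block (difference -0.44, adjusted p = 0.0359), 1 of 27 tested, beside 1.95% of all probe sets. Without pairing it was not called (adjusted p = 1.00, unadjusted p = 0.0491), nor were the other 26, beside 0.00888% of all probe sets. With arrays or replicate numbers left out its difference ran from -0.59, without miR-9/9* replicate 2, to -0.29, without empty vector replicate 2 or miR-9/9* replicate 3. The blocked call was lost without replicate number 1 (adjusted p = 0.0535), 2 (0.0854) or 3 (0.151), with the variance trend dropped (0.161) and with no filter (0.160). Of the other Foxn3 probe sets, 1434002_at was at -0.23 (block adjusted p = 0.216) and 1453094_at at -0.28 (0.515).

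**Figure D3:**
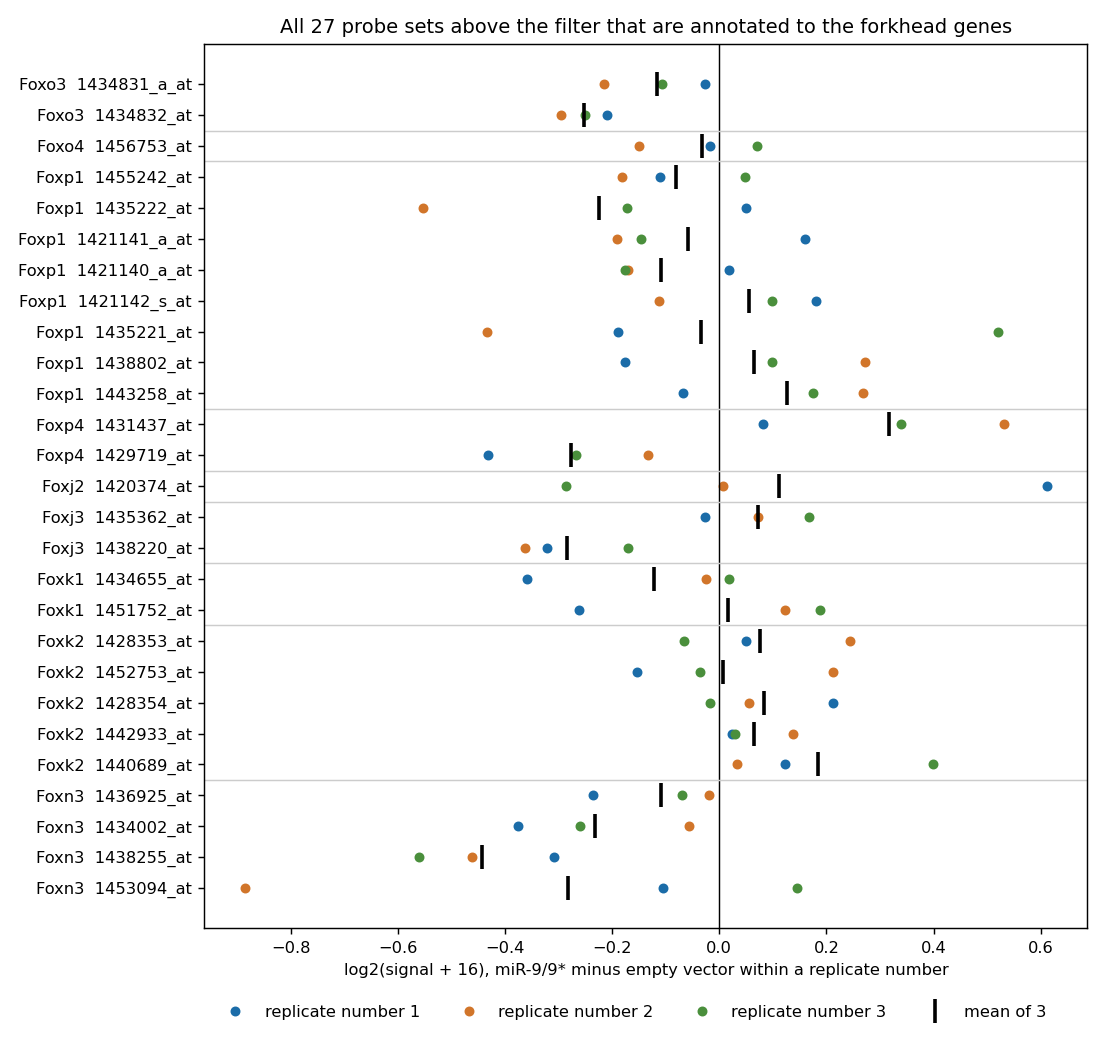
Difference in log2(signal + 16), miR-9/9* minus empty vector, within each replicate number (points) and their mean (bar), for the 27 probe sets above the filter that are annotated to the forkhead genes. All 4 Foxn3 means lie below 0 and all 5 Foxk2 means above it, whereas the 2 Foxp4 probe sets lie on opposite sides of 0.

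The replicate number took the larger share of the sum of squares in 8 of the 9 members, all but Foxp4, but the number has 2 degrees of freedom and the arm 1. Per degree of freedom the share of the number was the larger in 6 of 9, and that of the arm in Foxp4, Foxj2 and Foxk2. Of the sum of squares of Foxn3, 96.4% lay between the replicate numbers and 2.10% between the arms, and of that of Foxo3 88.7% and 7.80%. The median over the 9 members was 74.8% for the numbers and 7.80% for the arms, against 63.6% and 10.4% over all genes. In the F test of the replicate number within the blocked limma fit, Foxn3 (adjusted p = 0.00115) and Foxo3 (adjusted p = 0.0142) passed, 2 of 9 members, a share close to the 24.3% of all genes. Foxj3 (adjusted p = 0.0612) and Foxk1 (0.0751) did not pass. Foxp4 had 69.9% of its sum of squares between the arms and 6.61% between the numbers. Without a variance trend 1 of the 9 passed, and without replicate number 3 likewise 1.

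By root mean square difference of centred log2 values over the 6 arrays, the genes whose pattern was most like that of Foxo3 were Ncoa3, a nuclear receptor coactivator, at 0.0428, then E130307A14Rik at 0.0446 and A530088E08Rik at 0.0532. Ncoa3 stood at 82.0, 65.7 and 57.7 in miR-9/9* samples and at 89.2, 85.2 and 60.3 in empty vector samples. Foxo4 ranked 11 among the other genes, at 0.0641, and Foxp1 ranked 404. These genes share the same arrays, so the likeness is a description.

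Beyond the members, 27 of 34 other forkhead genes had a probe set of their own, 21 of them below the filter. Of the 6 tested, Foxn2, the closest relative of Foxn3, fell with the block and 0 were called without it. Foxn2 stood at 198, 207 and 183 in miR-9/9* samples, against 284, 313 and 254 in empty vector samples. The arms were fully separated, as for 9.82% of all genes, and the difference was -0.50 (SE 0.122, adjusted p = 0.492 without pairing). With the block the SE was 0.0734 (adjusted p = 0.00905), and 1.45% of all genes were called lower. Its second probe set, 1441138_at, was at -0.07, and averaging both ended the blocked call (adjusted p = 0.152), as did dropping the variance trend (0.0764). Foxm1, which drives mitotic genes, was at 56.9 ± 7.84 in miR-9/9* samples and 59.7 ± 9.94 in empty vector samples (SD, n = 3 each), a difference of -0.05. Foxd2, Foxf1, Foxl2 and Foxn1 had differences from 0.12 to 0.17 and were called in neither fit.

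Of 58 genes listed as FOXO targets from textbook knowledge, 55 had a probe set of their own and 41 were tested. With the block 0 were higher and 1 was lower, a share close to the background of 2.96%, and without it 0 were called. An unadjusted p under 0.05 in limma was reached with the block by 9 of the 41 (22.0%, beside 17.0% of all genes). Without pairing 1 of the 41 reached it, beside 4.60% of all genes. The median difference was 0.04, against 0.01 over all genes, with 24 above 0 and 17 below. The gene that fell was Bnip3, a mitochondrial protein of mitophagy whose transcription FOXO3 is known to raise in muscle, 1 of 12 tested genes of autophagy and protein breakdown. Bnip3 stood at 301, 246 and 149 in miR-9/9* samples, against 488, 414.2 and 214 in empty vector samples. The arms overlapped, yet it was lower within each number, and the difference was -0.62 (block SE 0.0769, adjusted p = 0.00501 with the block and 0.999 without it). With arrays or replicate numbers left out the difference ran from -0.96, without empty vector replicate 3, to -0.35, without miR-9/9* replicate 3. The blocked call was lost without a variance trend (adjusted p = 0.0648). The number of FOXO targets called with the block was 4 without replicate number 2 and 2 without number 3.

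Of 10 tested cell cycle arrest targets 0 were called in either fit, with a median difference of 0.16, 8 above 0 and 2 below. Over all genes 5353 of 10208 lay above 0. The CDK inhibitor gene Cdkn1a was at 1207 ± 349 in miR-9/9* samples and 1217 ± 269 in empty vector samples. The cyclin gene Ccnd2, which FOXO factors are known to repress, was at 1278 ± 172 in miR-9/9* samples and 1067 ± 129 in empty vector samples (difference 0.25, block adjusted p = 0.0911, higher in 3 of 3 pairs). The target lists were not split into raised and repressed genes, and Ccnd2 is among the 8 above 0. Counts of signs, here and over all tested targets, therefore do not read out a FOXO response, which was not tested. Of 6 apoptosis targets 0 were called. The brightest were Trib3, at 148 ± 54.1 in miR-9/9* samples and 161 ± 102 in empty vector samples, and Tradd, at 106 ± 17.8 in miR-9/9* samples and 124 ± 25.3 in empty vector samples. Of 13 targets in oxidative stress and metabolism 0 were called. The coactivator gene Cited2 was at 2177 ± 235 in miR-9/9* samples and 2049 ± 218 in empty vector samples, and the catalase gene Cat at 1323 ± 247 in miR-9/9* samples and 1333 ± 179 in empty vector samples (SD, n = 3 each). The 4 trafficking targets with a probe set, Klf2, S1pr1, Il7r and Ccr7, all lay below the filter.

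FOXO factors bind the core element GTAAACA. On either strand it occurs in 3.65% of 32851 RefSeq promoters of 300 bases (250 before to 50 after the start, GRCm38.p6), in 5 of the 39 promoters found for 33 of the 41 tested FOXO targets, and in 0 of the 10 promoters found for 8 of the 10 members. The 4 genes below hold it before the start, and their stretches are shown to set the element beside the response of its gene. The remaining tested target with the element, Sesn1, holds it after the start, at bases 23 to 29, and its stretch is not shown. Sesn1 was lower in 3 of 3 pairs but was not called (difference -0.29, block adjusted p = 0.107). Capitals mark the element or its reverse complement TGTTTAC.
Btg1 (chr10:96616780-96616820, plus strand): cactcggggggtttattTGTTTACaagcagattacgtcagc
Bcl2l11 (chr2:128125794-128125834, plus strand): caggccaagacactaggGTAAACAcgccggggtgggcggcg
Bbc3 (chr7:16310077-16310117, plus strand): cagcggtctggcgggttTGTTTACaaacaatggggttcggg
Txnip (chr3:96557819-96557859, plus strand): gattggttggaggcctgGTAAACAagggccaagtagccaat
These 4 genes were singled out by the element after their values were seen, and 0 were called between the arms. The antiproliferative gene Btg1 had a difference of 0.12, Bcl2l11, which encodes the death activator BIM, 0.30 (block adjusted p = 0.198), and Bbc3, which encodes PUMA, 0.04. Txnip, the thioredoxin inhibitor gene, stood at 660.2, 1079 and 217 in miR-9/9* samples and at 576, 1322 and 180 in empty vector samples. It differed little between the arms (0.05) and widely between replicate numbers (F test adjusted p = 2.24e-05), highest in number 2 and lowest in number 3 in both arms, as Foxn3 was. A match to the element is a description and not evidence of binding.

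**Figure D4:**
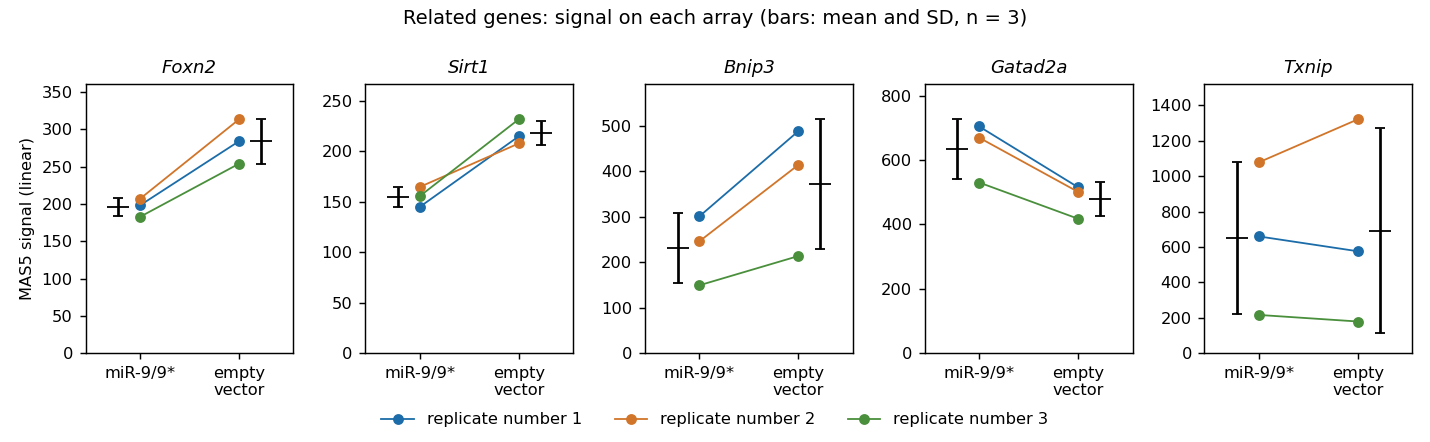
MAS5 signal (linear axes from 0) of Foxn2, Sirt1, Bnip3, Gatad2a and Txnip on each array, miR-9/9* at the left and empty vector at the right, points of the same replicate number joined, bars for mean and SD of 3 arrays. Foxn2, Sirt1 and Bnip3 are lower and Gatad2a is higher in miR-9/9* samples within each replicate number, while Txnip differs by number.

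The genes that act on FOXO proteins were tested next. Of 19 tested PI3K-AKT pathway genes 0 were called in either fit, with a median difference of 0.01. The catalytic subunit genes Pik3cd (2973 ± 465 in miR-9/9* samples and 3074 ± 322 in empty vector samples) and Pik3cg (1057 ± 195 in miR-9/9* samples and 1117 ± 44.1 in empty vector samples) were the brightest. Of 25 genes of FOXO binding proteins and modifying enzymes, Sirt1, a deacetylase that acts on FOXO proteins, fell with the block. That is 1 of 25, beside 1.45% of all genes called lower. Sirt1 stood at 145, 164 and 155 in miR-9/9* samples, against 215, 208 and 231 in empty vector samples. The arms did not overlap, as for 9.82% of all genes, and the difference was -0.45 (SE 0.116, adjusted p = 0.493, and 0.0230 with the block). Leaving out number 1 (adjusted p = 0.0962) or 3 (0.0632), the filter (0.0828) or the variance trend (0.110) ended that call.

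Partner genes of the other branches gave a single call. Of 10 tested FOXP partner genes, Gatad2a, a subunit of the NuRD corepressor complex, rose with the block, and 1.51% of all genes were called higher. Gatad2a stood at 704, 669 and 530.0 in miR-9/9* samples, against 515, 500.7 and 417 in empty vector samples. The arms did not overlap, as for 9.82% of all genes, and the difference was 0.39 (SE 0.141, adjusted p = 0.977, and 0.0146 with the block). All 5 Gatad2a probe sets had differences above 0, from 0.15 to 0.39, but averaging them ended the blocked call (adjusted p = 0.0664), as did leaving out number 1 (0.0805), the filter (0.0563) or the variance trend (0.115). Of 9 tested FOXK partner genes 0 were called in either fit. Sin3b, a corepressor scaffold, was at 636 ± 64.1 in miR-9/9* samples and 616 ± 68.2 in empty vector samples, and Hcfc1 at 597 ± 89.9 in miR-9/9* samples and 555 ± 74.4 in empty vector samples.

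**Figure D5:**
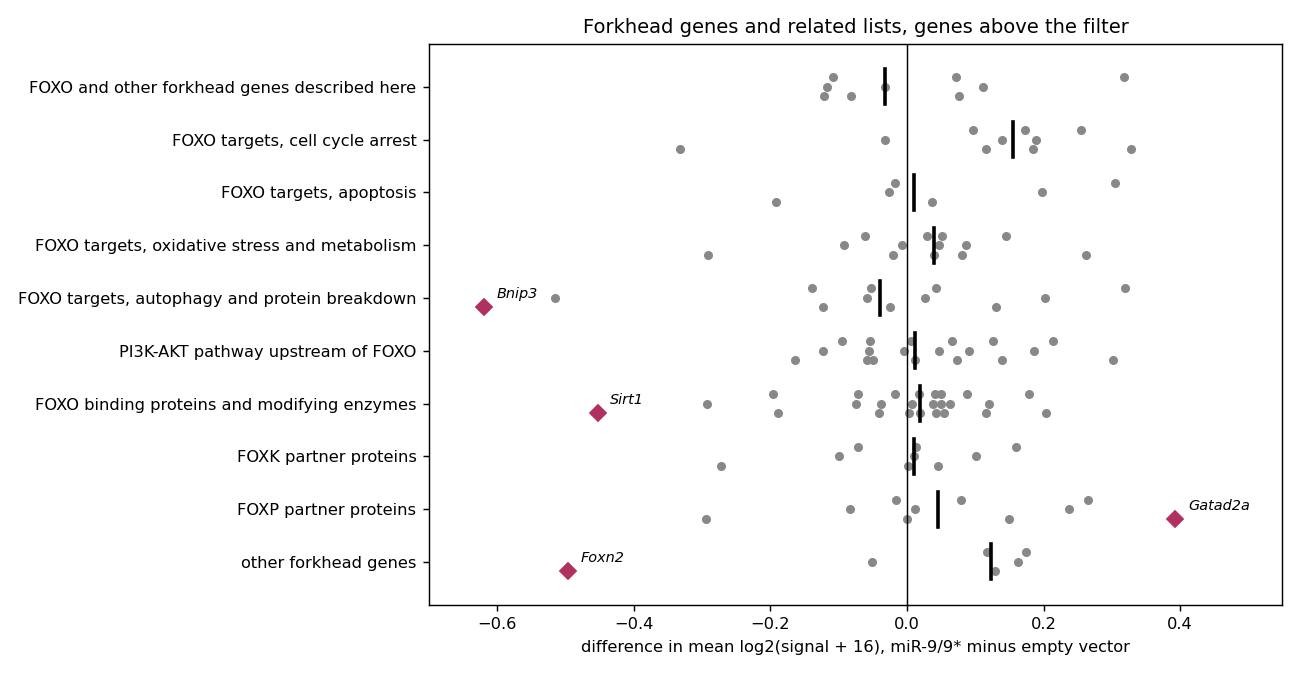
Difference in mean log2(signal + 16), miR-9/9* minus empty vector, of each gene above the filter in the forkhead members and the related lists (points), with the median of each list (bar) and the genes called with the replicate block (diamonds, named). The called genes are Bnip3, Sirt1, Gatad2a and Foxn2, and 0 of the 9 members are among them.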

How the data were processed

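The deposited intensity values are MAS5 signals per probe set, per the submitters' processing notes, which give no version. Every array has a mean of 100 without the lowest and highest 2%. Names came from GEO's platform annotation, which can be old, and 34741 of 34945 probe sets with 1 symbol matched a GRCm38.p6 gene table by Entrez ID. In all, 932 probe sets carry several symbols and 9160 none. The 64 control probe sets were left out.

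The two-sided comparison of the arms used limma (version 3.58.1, R 4.3.3) with moderated variances that follow a trend on mean signal, and was tested on simulated data. After the arm means were taken off, arrays sharing a replicate number correlated across genes at 0.491, 0.616 and 0.680, so the numbers pair the samples, read from the data rather than the labels. Residual degrees of freedom were 4 without the block and 2 with it. The number of arrays limits the precision.

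The members, lists and rules were chosen with earlier results of these data known. All members and other tested forkhead genes are named. Of each list, called genes are named, otherwise the 2 brightest. Alternatives were pseudocounts of 1 and 64, filters, normalizations, variance models, averaged probe sets and left-out arrays.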

Additional observations from a re-analysis of the deposited data

How the results depend on the processing

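With 3 arrays an arm, precision is limited by their number, and dim probe sets such as those of Foxo1 have no reliable level. Members called between the arms numbered 0 under all 25 alternatives, and their differences kept their sign in 209 of 222 comparisons with an alternative. Many of these comparisons could not turn a sign. With balanced arms the filter, the variance model and the block leave a difference unchanged, so the 209 do not measure stability. Calls over all genes numbered 6 without pairing, 2 with a pseudocount of 1, 3 without a variance trend, 0 without a filter (892 with an unadjusted p under 0.05 in limma), and 302 with the replicate block. With the block they numbered 74 without a filter, 38 without a variance trend, 273 after quantile normalization, 282 and 293 with pseudocounts of 1 and 64, 232 with averaged probe sets, and 162, 340 and 357 without replicate number 1, 2 and 3. Without pairing they numbered 0 to 7 when 1 array was left out (0 without empty vector replicate 1, where 399 had an unadjusted p under 0.05). Over all probe sets the calls numbered 2 without pairing, 0 with a pseudocount of 64 (802 with an unadjusted p under 0.05), no filter (1944) or a stricter filter (459), and 439 with the replicate block. With the block they numbered 54 without a filter, 46 without a variance trend, 407 after quantile normalization, 386 and 436 with pseudocounts of 1 and 64, and 234, 453 and 313 without replicate number 1, 2 and 3. Without pairing they numbered 0 to 7 when 1 array was left out (0 without empty vector replicate 1 or 2 or miR-9/9* replicate 1, where 726, 883 and 486 had an unadjusted p under 0.05). FOXO targets called numbered 0 without pairing, 1 with the block and 1 in each blocked alternative that kept all arrays, except 0 without a variance trend. With the block they numbered 1, 4 and 2 without replicate number 1, 2 and 3, and without pairing 0 when any array was left out. Member probe sets called numbered 1 with the block, also after quantile normalization and with either pseudocount, and 0 to 0 with arrays or numbers left out. In the replicate block fit, genes passing the F test of the replicate number fell to 1057 without a filter and 870 without a variance trend, against 2479, and ran from 790 to 2428 with a number left out. Members passing it numbered 1 without a variance trend and 1 to 3 with a number left out. The Foxo1 difference was 0.80 with a pseudocount of 1 and 0.10 with 64, and ran from 0.26 to 0.31 with arrays left out.

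Averaging probe sets turned Foxj3 to -0.11 and Trib3 to 0.033, and quantile normalization turned Cdkn1a to 0.00040. With balanced arms the block cannot change these values. Centring arrays on their medians turned Foxk1 probe set 1451752_at to -0.0023 and Foxk2 probe set 1452753_at to -0.012. Differences whose sign turned when arrays or numbers were left out ran from -0.25 to 0.0080 for Foxo3, -0.17 to 0.056 for Foxo4, -0.14 to 0.31 for Foxj2, -0.037 to 0.14 for Foxj3, -0.0080 to 0.15 for Foxk2, and -0.37 to 0.11 for Foxn3. They ran from -0.22 to 0.23 for Cdkn1a, -0.28 to 0.42 for Trib3, -0.13 to 0.14 for Cat, -0.20 to 0.070 for Pik3cd, -0.18 to 0.067 for Pik3cg, -0.047 to 0.11 for Sin3b, and -0.0039 to 0.23 for Hcfc1. They ran from -0.071 to 0.28 for Foxd2, -0.040 to 0.34 for Foxf1, and -0.14 to 0.055 for Foxm1. Among probe sets they ran from -0.22 to 0.050 for 1421141_a_at, -0.078 to 0.15 for 1421142_s_at, -0.35 to 0.20 for 1435221_at, -0.13 to 0.24 for 1438802_at, -0.014 to 0.16 for 1442933_at, -0.11 to 0.34 for 1443258_at, -0.12 to 0.16 for 1451752_at, -0.095 to 0.088 for 1452753_at, and -0.62 to 0.020 for 1453094_at. None of these differences was called in the main comparison, and the cause of the turns was not tested.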
